A study of Mus musculus with 6 samples.

Results

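Genes of the cellular response to low oxygen were followed by RNA-seq in TC-1, a mouse cell line that the labels call lung adenocarcinoma and that derives from lung cells transformed with papillomavirus oncogenes and an activated ras gene. The set held 10 known hypoxia-response genes (Hif1a, Bnip3, Ankrd37, Egln3, Car9, Vegfa, Adm, Ndrg1, Ddit4 and P4ha1), found by an exact match of gene symbol. Each stood on 1 of the 23282 rows of the count table, and each was among the 12191 genes with enough counts to be tested. Untreated TC-1 cells (3 libraries) were set against cells of the line (3 libraries) cultured for 72 h with 20 ng/ml recombinant murine interferon-gamma (IFN-gamma), an immune cytokine. A time of 72 h is recorded for the untreated libraries as well. All groups shared the same line and medium, and no oxygen level or cell density is stated in the labels. Whether replicates came from separate cultures is not stated either, so p-values measure only the spread between these libraries, which may be technical.

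Cells respond to low oxygen through hypoxia-inducible factor (HIF), a pair of an alpha subunit, encoded by Hif1a or Epas1, and a beta subunit, encoded by Arnt. When oxygen is present, prolyl hydroxylases of the Egln family mark the alpha subunit, the VHL ubiquitin ligase binds the mark and the protein is degraded. HIF is thus controlled mainly as a protein, while its target mRNAs change with transcription. Targets include Egln3 itself, which closes a feedback loop, and genes of blood vessel growth, glycolysis, mitochondrial turnover, acid export and collagen modification.

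The core of the DNA element that HIF binds is ACGTG or GCGTG. RefSeq promoter windows (GRCm38.p6), from 250 bases before the start of a gene to 50 bases from it, were matched for 9 of the 10 genes, and Ndrg1 had no entry. Counting both strands, each of these 9 genes held at least 1 core in a window, as did 43.8% of all 32851 windows. ACGTG stood in windows of 8 genes, against 19.6% of all windows, and GCGTG in windows of 6, against 32.4%. Both cores stood in windows of 5 of the genes, against 8.24% of all windows. These genes were picked as known hypoxia genes, so the matches describe the choice as much as the promoters. The windows of 4 genes are shown because they are the 3 lowered genes with a window (Bnip3, Egln3 and P4ha1) and the gene whose fold change had the opposite sign (Adm). Capitals mark ACGTG or GCGTG on either strand, so that CACGT and CACGC are cores read from the other strand.
Bnip3, chr7:138909457-138909756, minus strand: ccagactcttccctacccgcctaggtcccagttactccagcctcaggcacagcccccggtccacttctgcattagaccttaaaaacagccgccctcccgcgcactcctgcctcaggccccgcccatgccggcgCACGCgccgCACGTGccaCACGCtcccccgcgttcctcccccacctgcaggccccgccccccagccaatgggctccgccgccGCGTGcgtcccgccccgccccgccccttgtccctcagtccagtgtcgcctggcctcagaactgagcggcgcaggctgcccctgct
Egln3, chr12:54203825-54204124, minus strand: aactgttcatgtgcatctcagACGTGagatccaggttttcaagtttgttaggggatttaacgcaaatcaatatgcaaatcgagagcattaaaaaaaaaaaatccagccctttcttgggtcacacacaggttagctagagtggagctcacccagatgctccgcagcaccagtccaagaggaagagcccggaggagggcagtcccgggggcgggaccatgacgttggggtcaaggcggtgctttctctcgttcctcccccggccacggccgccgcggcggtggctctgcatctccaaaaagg
P4ha1, chr10:59323046-59323345, plus strand: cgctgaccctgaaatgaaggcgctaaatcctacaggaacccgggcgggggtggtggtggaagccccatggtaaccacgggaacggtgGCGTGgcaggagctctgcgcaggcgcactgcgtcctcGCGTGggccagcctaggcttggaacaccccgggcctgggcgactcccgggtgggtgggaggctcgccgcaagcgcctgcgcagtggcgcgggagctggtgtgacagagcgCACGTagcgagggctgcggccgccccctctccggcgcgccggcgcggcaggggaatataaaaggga
Adm, chr7:110627407-110627706, plus strand: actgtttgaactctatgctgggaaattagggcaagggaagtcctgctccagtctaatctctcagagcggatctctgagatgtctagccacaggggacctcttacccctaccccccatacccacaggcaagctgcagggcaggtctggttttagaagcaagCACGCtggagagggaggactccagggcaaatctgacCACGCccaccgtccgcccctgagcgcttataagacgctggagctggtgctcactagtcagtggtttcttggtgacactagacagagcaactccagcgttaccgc
In the Bnip3 window the capitals CACGTG are a palindrome, counted as 2 of its 5 matches, and such a site can also be read by other helix-loop-helix factors. Egln3 had a single ACGTG, beginning 229 bases before the start. P4ha1 had 1 ACGTG and 2 GCGTG, and Adm had only GCGTG, at 2 positions. A match is a description of letters and does not show that HIF bound there.

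After IFN-gamma, 4 of the 10 hypoxia genes fell and none rose (0 higher). These were Egln3, a HIF prolyl hydroxylase, Ndrg1, a stress and differentiation gene strongly induced by hypoxia, Bnip3, a mitophagy receptor, and P4ha1, a collagen prolyl 4-hydroxylase subunit. Their log2 fold changes (IFN-gamma over untreated, ± standard error) ran from -0.90 ± 0.21 to -0.27 ± 0.06, so that all but Egln3 were modest. In edgeR's quasi-likelihood test with Benjamini-Hochberg adjustment over all genes, 7.56% of the genes tested were lower and 9.88% higher at an adjusted p under 0.05. Over all 10 hypoxia genes the median log2 fold change was -0.23, against -0.01 over all genes tested, and 9 of 10 values were below 0, against 51.4% of all genes tested. Hif1a itself did not pass the test. In bulk RNA, fewer cells expressing a gene and less RNA per cell cannot be told apart. The 3 IFN-gamma libraries lay below the 3 untreated ones in 7 of the 10 genes, against 15.6% of all genes tested.

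Library totals ran from 7302687 to 10861336 counts. Levels are given as CPM, counts divided by the library total after scaling it with edgeR's TMM factors, and 1 count was worth 0.093 to 0.136 CPM. The treatment left its usual trace in the libraries: Irf1 rose by 3.62 ± 0.07, and all 10 IFN-gamma check genes were higher. Over all genes 1204 were higher and 922 lower, so 56.6% of calls were increases. This share was 41.6% under upper-quartile scaling and 44.5% with total counts only. Lung epithelial markers were scarce despite the label: 3 of 14 were at 0 in every library, Epcam had 2 counts over the untreated group and 0 over the IFN-gamma group, and Cdh1 9 and 8. Of the 3 with enough counts, Krt19 fell, and the list summed to 17.6 to 20.0 CPM in untreated and 11.6 to 12.8 CPM in treated libraries. Endothelial markers were near 0: the 8 of them summed to 0.749 to 2.40 CPM in untreated and 0.892 to 1.30 CPM in IFN-gamma libraries. The 16 leukocyte markers summed to 39.4 to 49.1 and 47.3 to 57.4 CPM, with Cd14 at 33.2 to 41.8 and 32.8 to 45.8 CPM, while the defining marker Ptprc had 0 counts before and 2 after treatment. Of the 2 leukocyte markers tested Cd68 rose, a call lost in 4 of 15 alternative fits (adjusted p up to 0.156). Mesenchymal markers were abundant, and 8 of 10 fell (summed CPM 11300 to 11590 in untreated and 8067 to 8399 in IFN-gamma libraries), Col3a1 by 1.83 ± 0.08. Their part in the changes of the hypoxia genes was not tested.

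**Figure D1:**
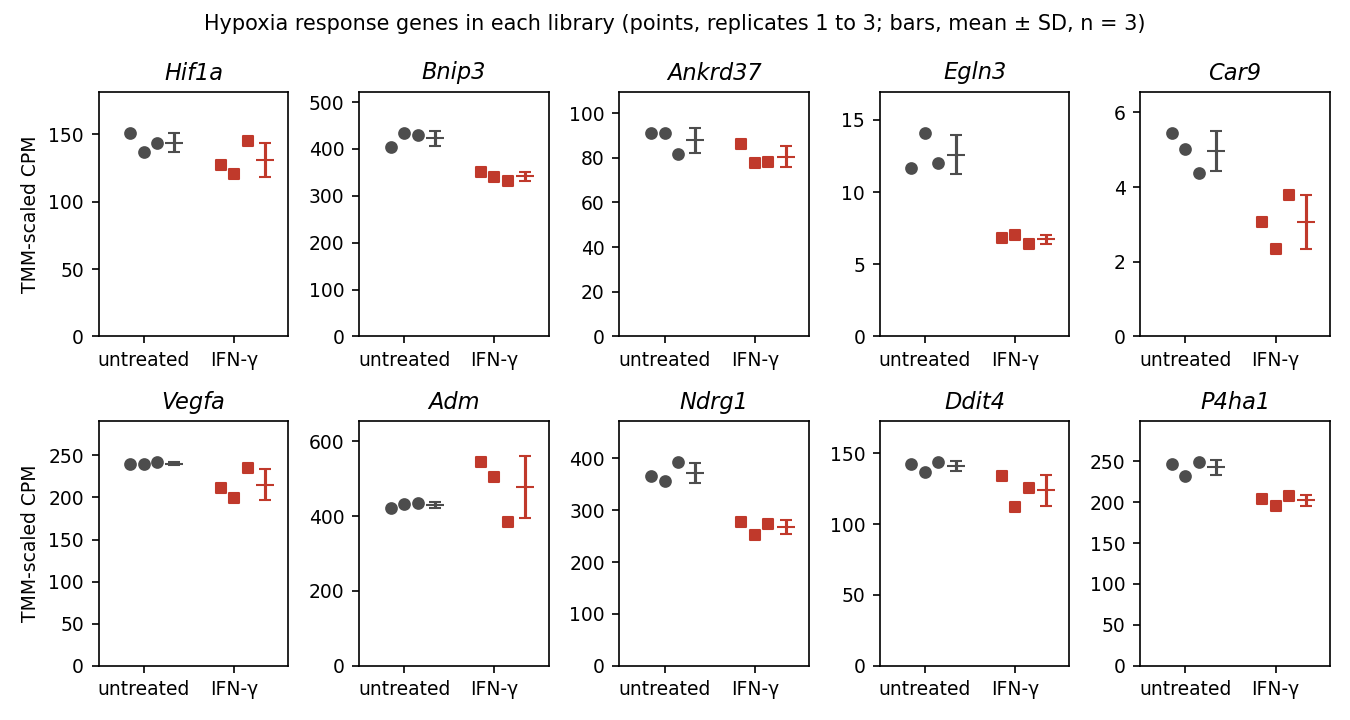
TMM-scaled CPM of the 10 hypoxia response genes in each of 3 untreated (circles) and 3 IFN-gamma (squares) libraries, with mean ± SD beside the points and each vertical axis starting at 0. The groups do not overlap for Bnip3, Egln3, Ndrg1 and P4ha1, which passed the test, nor for Car9, Vegfa and Ddit4, which did not. Adm spreads from 385 to 545 CPM among the IFN-gamma libraries.

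Hif1a, the oxygen-controlled alpha subunit, had 151, 137 and 143 CPM in untreated replicates 1, 2 and 3 and 127, 120 and 145 CPM in IFN-gamma replicates 1, 2 and 3. The first 2 IFN-gamma libraries were below all untreated ones and the third was within their range. Its log2 fold change was -0.14 ± 0.07 (95% interval -0.29 to 0.01, adjusted p = 0.214 in edgeR's test). Without IFN-gamma replicate 3 it was -0.22 and passed (adjusted p = 0.0323). In the GENCODE mouse annotation Hif1a overlaps an antisense gene and, on its own strand, the protein-coding gene Gm49321, neither of them a row of the count table. The use of strand in counting is not stated, and reads from these genes cannot be told apart from those of Hif1a. Genes on the other strand also overlap Adm, Bnip3, Car9 and Ndrg1.

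Of the partners and regulators of HIF, 17 genes besides Hif1a and Egln3 were tested, of which 1 rose, 1 fell and 15 did not pass. Their median log2 fold change was 0.02. Egln1, the main oxygen-sensing prolyl hydroxylase and itself a HIF target, was the one that fell, by 0.59 ± 0.06, from 333 ± 5.0 to 221 ± 15.9 CPM (SD, n = 3 libraries; adjusted p = 4.84e-10 in edgeR's test). Arnt2, an alternative beta subunit best known from neurons, was the one that rose, by 0.64 ± 0.14 (adjusted p = 0.000449, edgeR). Its levels were 20.7, 22.0 and 27.6 CPM in untreated and 32.9, 34.2 and 43.0 CPM in IFN-gamma libraries, with no overlap. The usual beta subunit Arnt had 0.06 ± 0.11, a value whose sign turned to -0.03 without IFN-gamma replicate 3. The second alpha subunit Epas1 had -0.45 ± 0.27 at 6.47 and 4.76 CPM, and the VHL gene had -0.18 ± 0.13. The hydroxylases Egln2, with 0.16 ± 0.12, and Hif1an, which blocks coactivator binding and had 0.30 ± 0.14, did not pass either (adjusted p = 0.396 and 0.132, edgeR).

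Egln3, the hydroxylase that hypoxia induces most sharply in many cells, had 11.7, 14.1 and 12.01 CPM in untreated replicates 1, 2 and 3. In the IFN-gamma libraries it had 6.79, 7.02 and 6.39 CPM. Every treated library was below every untreated one, and the distance between the groups was wider than the spread within either. It fell by 0.90 ± 0.21, a loss of 46.3% and the lowest fold change of the 10 (adjusted p = 0.00145, edgeR). Behind these levels stood 54 to 115 counts per library. Its log2 fold change was between -0.95 and -0.81 in 15 alternative fits, all of which called it. Of the Egln hydroxylase genes, Egln1 and Egln3 were lower, while Egln2 did not pass. Whether Egln2 differed from Egln1 or Egln3 in its response was not tested.

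**Figure D2:**
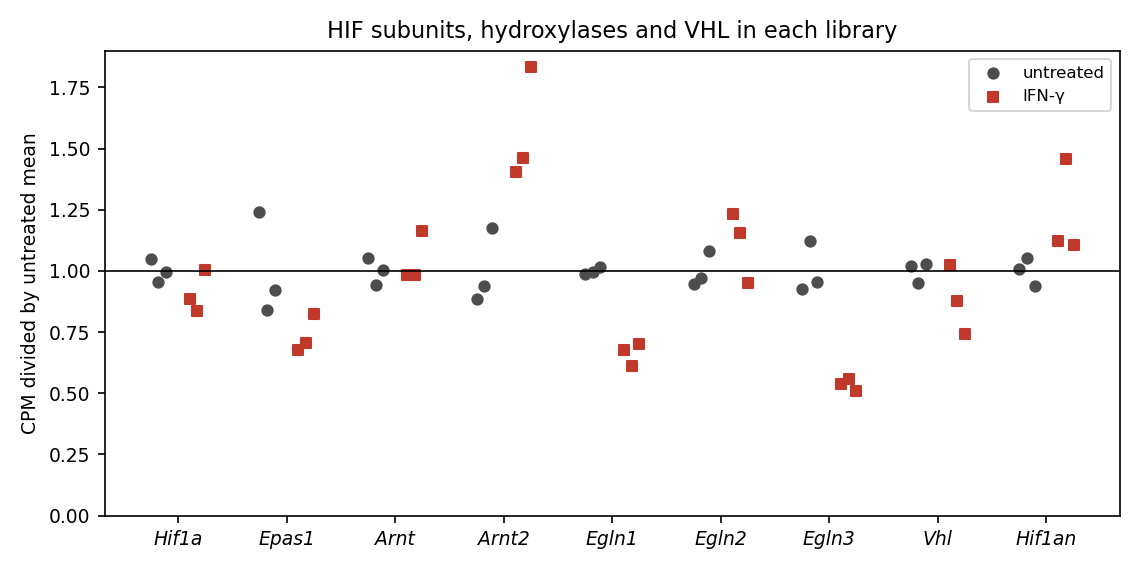
CPM of HIF subunits, hydroxylases and Vhl in each library, divided by the mean of the 3 untreated libraries of the same gene (circles, untreated; squares, IFN-gamma; vertical axis from 0). The IFN-gamma points of Egln1 and Egln3 lie apart below the untreated ones and those of Arnt2 above them. Those of Epas1 (below) and Hif1an (above) do not overlap the untreated ones either, though neither gene passed the test. Hif1a, Arnt, Egln2 and Vhl overlap between groups.

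Of the secreted factors, Vegfa, the main growth factor for blood vessels, had 239, 240 and 242 CPM in untreated libraries and 211, 199 and 236 CPM in IFN-gamma libraries. The untreated values were almost equal (coefficient of variation 0.651%), the treated ones spread more widely (8.70%), and the groups did not overlap. The log2 fold change was -0.16 ± 0.07 and did not pass (95% interval -0.29 to -0.03, adjusted p = 0.0876, edgeR). It passed without IFN-gamma replicate 3 (-0.23, adjusted p = 0.00575) and under upper-quartile scaling or with total counts only (adjusted p = 0.0183 and 0.0296). Both of these scalings also lowered the median of all genes tested, to -0.06 and -0.05. Among 7 other VEGF ligands and receptors tested, 1 rose and 2 fell. The neuropilins, VEGF and semaphorin co-receptors, moved apart: Nrp2 rose by 0.83 ± 0.09 from 57.8 ± 3.43 to 103 ± 8.997 CPM, and Nrp1 fell by 0.56 ± 0.10 from 59.6 ± 5.16 to 40.4 ± 3.88 CPM (adjusted p = 6.45e-10 and 7.79e-05, edgeR). Flt1, a decoy-like VEGF receptor, was just past the threshold (-0.23 ± 0.08, adjusted p = 0.0492), a call lost in 8 of 15 alternative fits. The placental growth factor gene Pgf had -0.15 ± 0.07.

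Adm, which encodes the vasodilator peptide adrenomedullin, was the only one of the 10 with a fold change above 0. It had 422, 434 and 435 CPM in untreated libraries and 545, 505 and 385 CPM in IFN-gamma libraries. The first 2 IFN-gamma libraries were above all untreated ones and the third was below them all. Its log2 fold change of 0.15 ± 0.12 did not pass (95% interval -0.12 to 0.43, adjusted p = 0.461, edgeR). Without IFN-gamma replicate 3 Adm was higher by 0.29 ± 0.05 (adjusted p = 5.66e-05, edgeR). That fit leaves out the library that differed from the first 2, so its small p-value does not settle whether Adm rose. Without IFN-gamma replicate 1 the log2 fold change was 0.05, the lowest of the 15 alternatives. Of 4 other genes of this ligand and receptor system tested, 1 fell and 0 rose. That gene was Ramp3, which encodes a partner of the adrenomedullin receptor and fell by 0.26 ± 0.06 from 364 ± 5.84 to 304 ± 29.0 CPM (adjusted p = 0.00216, or 0.052 without IFN-gamma replicate 1, edgeR).

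Bnip3, an outer mitochondrial membrane protein that directs mitochondria to autophagy, had 404, 435 and 429 CPM in untreated libraries. After IFN-gamma it had 352, 341 and 332 CPM. The groups were separate, and the 3 values within each lay close together. It fell by 0.31 ± 0.06, which is 19.2% (adjusted p = 9.51e-05, edgeR), and its log2 fold change stayed between -0.36 and -0.29 in 15 alternative fits, all of which called it. The related receptor gene Bnip3l, also a HIF target, fell by 0.46 ± 0.06. Its levels were 311, 333 and 328 CPM in untreated and 240, 226 and 240 CPM in IFN-gamma libraries (adjusted p = 1.01e-07, edgeR). Beyond Bnip3, 19 mitophagy and mitochondrial quality genes were tested, of which 1 rose and 3 fell, with a median of -0.05. Besides Bnip3l, these were the autophagosome protein genes Gabarap (-0.32 ± 0.08) and Map1lc3b (-0.22 ± 0.08) and, in the other direction, the receptor gene Optn (0.78 ± 0.25 at 5.18 and 8.88 CPM). The calls of Map1lc3b and Optn were lost in 6 and 5 of 15 alternative fits.

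Ddit4 encodes REDD1, which restrains the growth kinase complex mTORC1 under hypoxia and other stresses. It had 142, 137 and 144 CPM in untreated and 134, 112 and 126 CPM in IFN-gamma libraries. All treated values were below all untreated ones, but the treated libraries spread more than the gap to the untreated group. The log2 fold change was -0.19 ± 0.07 and did not pass (95% interval -0.34 to -0.04, adjusted p = 0.0801, edgeR). It passed under upper-quartile scaling or with total counts only (adjusted p = 0.0207 and 0.0296) and without IFN-gamma replicate 1 (-0.24, adjusted p = 0.0437). Both of these scalings also lowered the median of all genes tested, to -0.06 and -0.05. Of 16 other genes of mTORC1 restraint and its targets tested, 1 rose and 1 fell. Arrdc4, an arrestin-domain relative of Txnip that responds to glucose, rose by 1.11 ± 0.19 (adjusted p = 8.96e-05). Tsc2, the mTORC1 brake through which REDD1 acts, fell by 0.32 ± 0.09 (adjusted p = 0.0114, edgeR), and did not pass when untreated replicate 1 or IFN-gamma replicate 2 was left out (adjusted p = 0.0784 and 0.0599).

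Car9, a carbonic anhydrase at the cell surface that helps hypoxic tumour cells to export acid, had few counts. Untreated libraries held 51, 37 and 42 of its counts and treated ones 33, 21 and 32. That is 5.45, 5.02 and 4.39 CPM against 3.07, 2.34 and 3.79 CPM, with no overlap between groups. The log2 fold change was -0.69 ± 0.34 and did not pass (adjusted p = 0.165, edgeR). At this depth the 95% interval ran from -1.37 to -0.01, so a change of the size of that of Egln3 and one near 0 both lie within it. Of 12 other carbonic anhydrase and acid transport genes tested, 2 fell and none rose (0 higher). These were the lactate exporter Slc16a3, a HIF target that fell by 0.39 ± 0.08, and Bsg, its chaperone at the membrane, which fell by 0.41 ± 0.06 from 380 ± 28.3 to 285 ± 9.06 CPM (adjusted p = 0.000235 and 1.65e-06, edgeR).

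P4ha1 encodes the catalytic subunit of the enzyme that hydroxylates collagen chains in the endoplasmic reticulum. It had 247, 232 and 249 CPM in untreated and 204, 195 and 208 CPM in IFN-gamma libraries. The groups did not overlap, and the range within each was smaller than the gap between them. It fell by 0.27 ± 0.06, or 16.8% (adjusted p = 0.00189, edgeR), and was called in all 15 alternative fits. Of 16 other collagen hydroxylation and crosslinking genes tested, 7 fell and 1 rose, and several of them are also HIF targets. The lysyl oxidase gene Lox fell by 0.59 ± 0.07 from 294 ± 15.7 to 196 ± 19.4 CPM, the lysyl hydroxylase genes Plod2 and Plod1 by 0.52 ± 0.07 and 0.41 ± 0.09, and the sister subunit P4ha2 by 0.39 ± 0.09. With untreated replicate 3 left out, P4ha2 did not pass (adjusted p = 0.0618) and 4 rather than 7 genes fell. P4hb, the shared beta subunit, fell by 0.21 ± 0.06, and did not pass when untreated replicate 2 or 3 was left out (adjusted p = 0.0606 and 0.0719). Loxl3 was the one that rose, by 0.29 ± 0.07. These changes lie beside the lower mesenchymal markers given above, whose part in them was not tested.

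Ndrg1, whose product acts in stress responses and vesicle traffic and which hypoxia induces in many cell types, had the smallest adjusted p of the 10. It had 366, 356 and 393 CPM in untreated replicates and 278, 251 and 273 CPM in IFN-gamma replicates. No treated library came near the untreated range. It fell by 0.48 ± 0.06, or 28.1% (adjusted p = 6.81e-08, edgeR), with values from -0.53 to -0.43 in 15 alternative fits, all of which called it. In its family, Ndrg2 fell by 0.79 ± 0.16 from 20.1 ± 1.13 to 11.6 ± 0.39 CPM (adjusted p = 0.000327, edgeR), while Ndrg3 had -0.14 ± 0.16 and Ndrg4 -0.02 ± 0.37. Likeness to Ndrg1 was measured as the Euclidean distance between log2 CPM values of the 6 libraries, centred on the untreated mean. Among 8984 genes of at least 10 CPM on average the nearest were Cav1 (distance 0.0703), Xrcc5 (0.105) and Thbs2 (0.114), which encode caveolin, a DNA repair protein and a matrix thrombospondin.

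Ankrd37, a small ankyrin repeat gene widely used as a marker of hypoxia, had 91.2, 90.9 and 81.5 CPM in untreated and 85.9, 77.6 and 77.9 CPM in IFN-gamma libraries. The groups overlapped. Its log2 fold change was -0.12 ± 0.08 (95% interval -0.29 to 0.05, adjusted p = 0.355, edgeR), and none of the 15 alternative fits called it (0 of 15). In the annotation Ankrd37 overlaps Ufsp2 and Lrp2bp on the other strand. Ufsp2 had between 1119 and 1585 counts per library, so some reads at the shared end may belong to either gene.

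**Figure D3:**
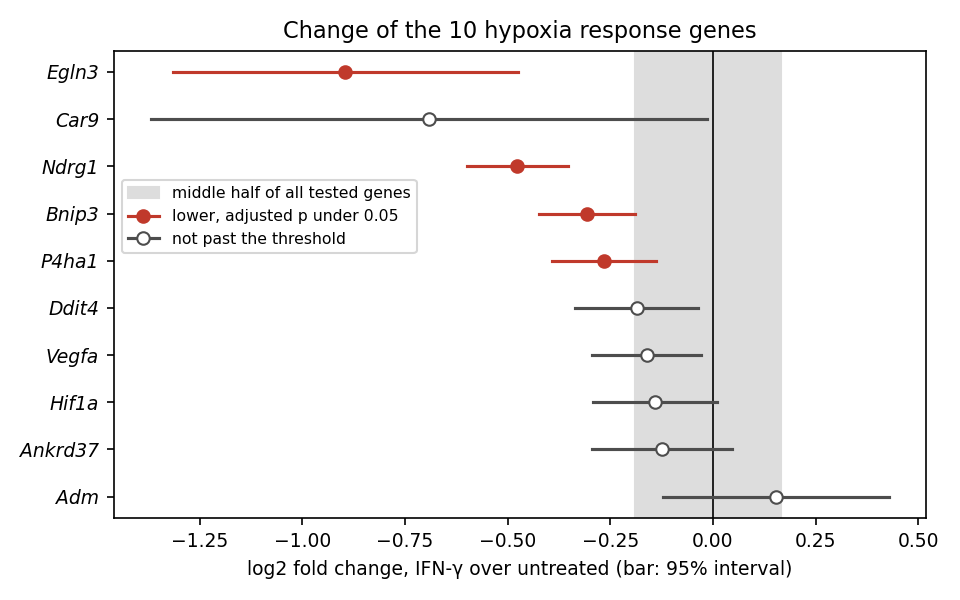
Log2 fold change (IFN-gamma over untreated) of the 10 genes with 95% intervals from edgeR's fit. The grey band runs between the quartiles of all genes tested (-0.19 to 0.17). Egln3, Ndrg1, Bnip3 and P4ha1 (filled points) passed the test and lie left of the band. Car9 (-0.69), which did not pass, also lies left of it and has the widest interval.

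Among the IFN-gamma libraries, replicate 2 was the lowest for 7 of the 10 genes (Hif1a, Ankrd37, Car9, Vegfa, Ndrg1, Ddit4 and P4ha1). Replicate 3 was the lowest for the other 3 (Adm, Bnip3 and Egln3) and the highest for Hif1a, Vegfa, Car9 and P4ha1. The summed CPM of the 10 genes was 2081, 2081 and 2134 in untreated and 1946, 1811 and 1792 in IFN-gamma libraries. The coefficient of variation was between 0.651% and 10.8% in untreated and between 2.92% and 23.6% in IFN-gamma libraries.

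A wider list held 49 hypoxia-responsive genes outside glycolysis, none of them among the 10. It is broad, and Selenbp1, Rsbn1 and Trpm7 in it have weaker ties to HIF. Of 46 tested, 22 fell and 3 rose, with a median log2 fold change of -0.25 against -0.01 for all genes tested. Egln1 and Bnip3l, given above, and Lox were the 3 with the smallest adjusted p. Angptl4, a secreted inhibitor of lipoprotein lipase, fell by 0.63 ± 0.11 from 57.5 ± 9.02 to 37.3 ± 1.596 CPM. Cdkn1a, which encodes the cell cycle inhibitor p21, fell by 0.22 ± 0.06, but did not pass when untreated replicate 3 or IFN-gamma replicate 1 was left out (adjusted p = 0.0732 and 0.0509, edgeR). Those that rose included Rsbn1 (0.37 ± 0.06) and the heme oxygenase gene Hmox1 (0.28 ± 0.08, adjusted p = 0.05 with untreated replicate 1 left out).

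Of the glycolytic targets of HIF, 13 fell and 1 rose of 21 tested, with a median of -0.25. Gpi1 (-0.37 ± 0.06), the mitochondrial gatekeeper kinase Pdk1 (-0.43 ± 0.07), Pgk1 (-0.33 ± 0.06) and Ldha (-0.26 ± 0.06) were among those that fell, and Hk2 rose by 0.26 ± 0.06. The glucose transporter gene Slc2a1, a classical HIF target, had -0.07 ± 0.08 and did not pass (adjusted p = 0.606, edgeR). Reads of glycolytic genes with pseudogene copies, such as Gapdh, are uncertain.

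ATF4, the transcription factor of the integrated stress response, also induces Ddit4 and Vegfa. Of 27 ATF4 targets tested, 10 rose and 2 fell, with a median of 0.16. Wars, a tRNA synthetase gene that IFN-gamma is known to induce directly, rose by 2.61 ± 0.09, Nupr1 by 0.70 ± 0.13 and the serine synthesis gene Phgdh by 0.40 ± 0.08. Atf4 mRNA had 0.09 ± 0.05. The 2 that fell, Vldlr and Herpud1, were lost without IFN-gamma replicate 1, IFN-gamma replicate 2, untreated replicate 2 or untreated replicate 3, each of which left 0 lower. The Nupr1 and Wars libraries did not overlap between groups.

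**Figure D4:**
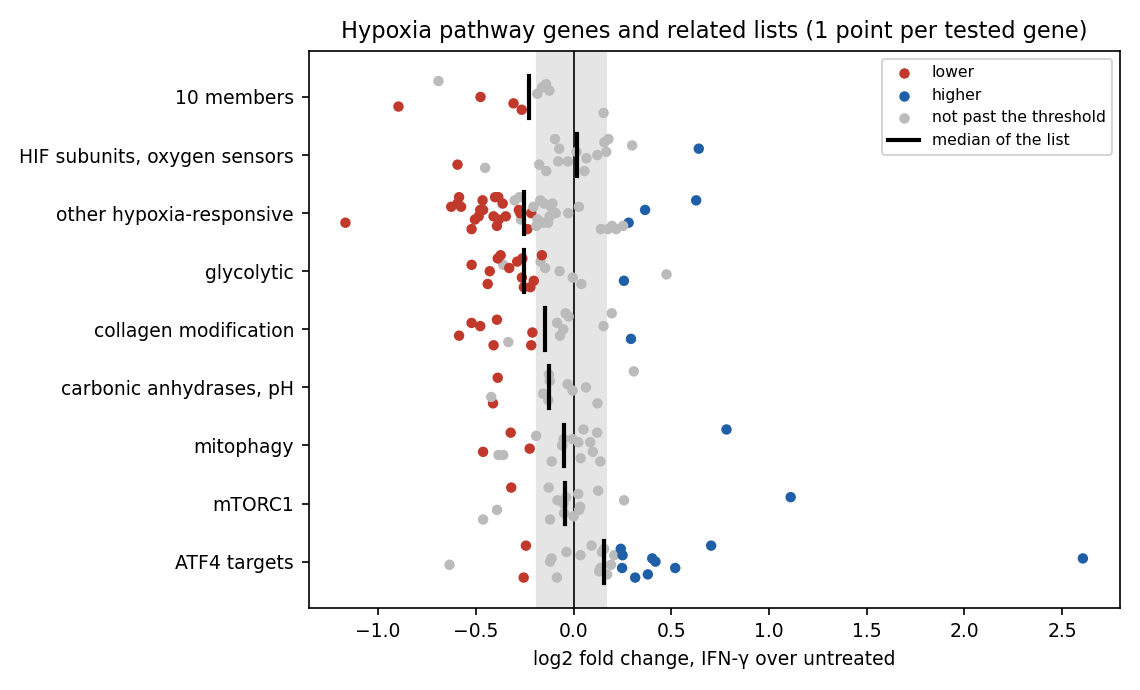
Log2 fold change (IFN-gamma over untreated) of every tested gene in the lists of hypoxia and related genes, 1 point per gene, with lists other than the first shown without the 10 genes. Black bars are medians and the grey band runs between the quartiles of all genes tested. The medians of the 10 genes, the other hypoxia-responsive genes and the glycolytic genes (-0.23, -0.25 and -0.25) lie left of the band. That of the ATF4 targets (0.16) lies right of 0 but within the band.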

How the data were processed

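Gene counts of 6 libraries were used as deposited: per the file headers the authors' table holds raw counts and log2 normalized values, and the log2 values deposited by the authors were used only for an alternative test. Per the submitters' processing notes, Bowtie2, edgeR and the human build hg19 were named, with no versions. The symbols are those of mouse genes, so no gene coordinates were taken from the table. Per the labels' protocols, a stranded kit and a 3' end kit are both listed, and which one gave the counts is not given in the sources used here. CPM is not corrected for gene length, so an order of CPM between genes is not a result.

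The test was edgeR's robust quasi-likelihood fit (version 4.0.16, R 4.3.3) with no covariate, after TMM scaling and filterByExpr at its minimum count of 10. P-values were adjusted by Benjamini-Hochberg over 12191 genes, with a threshold of 0.05. Standard errors come from the fold change and its F value. The script was checked on simulated data. The biological coefficient of variation was 0.0871. No 2 libraries agreed within sampling noise. Library totals are given with the results. Overlapping genes were read from the GENCODE mouse annotation.

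The genes and lists were chosen with earlier results of these data known. Every gene of the set of 10 is named. From each list the 3 smallest adjusted p in each direction, the gene with the highest mean CPM and a fixed set (such as Epas1, Arnt, Vhl, Slc2a1 and Ldha) are named, and others (such as Epcam, Cdh1, Ptprc, Gapdh, Ndrg4, Selenbp1 and Trpm7) were chosen after their values were seen. Some genes appear in more than 1 list. Some items that this rule names are not reported here. Alternatives were other scaling factors, DESeq2 1.42.0, limma 3.58.1 on the deposited log2 values, no filter, thinned counts, a fit without robust, a replicate block and leaving out each library.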

Additional observations from a re-analysis of the deposited data

How the results depend on the processing

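The calls of Bnip3, Egln3, Ndrg1 and P4ha1 were met in all 15 alternatives, and no value of the 10 genes changed sign in any of them. Of 150 values of these genes under alternatives, 142 kept their side of the threshold and 8 newly passed it. These are the values of Hif1a, Vegfa, Adm and Ddit4 given with each gene. The number of the 10 that were lower ran from 4 to 6 in fits without 1 library, and the number higher from 0 to 1. Under upper-quartile scaling or with total counts only it was 6 lower, and the median of all genes was -0.06 and -0.05. The number of genes called higher and lower was within 1.5 times of 1204 and 922 in every alternative. Among collagen modification genes 2 rose with thinned counts or the replicate block, and the fits without 1 library gave 1 to 2 higher and 4 to 7 lower. Among ATF4 targets 0 fell with DESeq2 and 1 with limma or no filter, and 0 to 2 without 1 library. These list counts were added after seeing the data. The sign of Arnt turned without IFN-gamma replicate 3 (-0.03, with 0.10 the highest without 1 library), and that of Cd14, a leukocyte marker with 0.05 ± 0.12, with upper-quartile factors (0.00) and on leaving out untreated replicate 2 (-0.03) or the third IFN-gamma library (-0.07). Its highest value without 1 library was 0.16. Of 945 values of other named genes, 894 kept their side, 45 lost the call, 2 newly passed and 4 changed sign. Whether replicate numbers pair the libraries cannot be settled from 3 libraries in each group. Deviations of same-numbered libraries correlated at 0.0028, 0.0411 and -0.0014, and those of differently numbered ones at -0.0278 to 0.0276. With the replicate block 4 of the 10 genes were lower, with 1252 genes higher and 974 lower over all. The depth limits Car9 (21 to 51 counts per library).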
